A study of Homo sapiens with 8 samples.

Results

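The transcripts of 10 BCL2 family genes were followed in Kyse510 cells, an established line of human esophageal squamous cell carcinoma (ESCC), by RNA-seq. They were taken by gene symbol and comprised PMAIP1 (NOXA), BBC3 (PUMA), BCL2L11 (BIM), BMF, BID, BAD, BAX, BAK1, BCL2L1 (BCL-XL) and MCL1. All 10 were listed once in each of 2 tables, which held 31582 genes for the inhibitor experiment and 28942 for the shRNA experiment, with 26360 genes in both. The first experiment compared vehicle (DMSO) with SP2509, an inhibitor of the histone demethylase LSD1, with UNC0642, an inhibitor of the histone methyltransferase G9a, and with both together, each for 2 days. Each single inhibitor was used at 7 µM, and no separate dose was stated for the combination. The second used Kyse510 lines carrying a doxycycline-inducible shRNA against LSD1 (shLSD1) or G9a (shG9a), selected with puromycin for 14 days to obtain stable clones and compared without and with doxycycline (Dox) for 2 days. Each line carried 1 construct, and a line with a nonsilencing shRNA and Dox was not analysed here, so an effect of Dox itself and an effect of the knockdown cannot be told apart.

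The BCL2 family decides whether the outer mitochondrial membrane stays intact. BAX and BAK1 are the effectors that form pores in that membrane, BCL2L1 and MCL1 are guardians that bind and hold the effectors and their activators, and the BH3-only proteins (the other members here) either bind the guardians or activate the effectors directly. PMAIP1 binds MCL1 in particular, whereas BAD binds BCL2L1 but not MCL1, and BCL2L11 and BBC3 bind all guardians. Many BH3-only genes are known to be switched on at the level of transcription, by p53 (BBC3, PMAIP1), by ATF4 and CHOP in endoplasmic reticulum stress (PMAIP1, BBC3, BCL2L11) or by FOXO factors (BCL2L11).

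What the proteins share is the BH3 motif, the short helix through which they bind one another. The coding bases of its core are printed below, since this short stretch is found in all 10 members. The capitals mark the 18 bases for 6 residues, a leucine, any 3 residues, a glycine, alanine or serine, and an aspartate, as found in the canonical GENCODE 44 transcript (GRCh38), and each line gives the plus or minus strand at the coordinates named.
PMAIP1, chr18:59902658-59902705, plus strand: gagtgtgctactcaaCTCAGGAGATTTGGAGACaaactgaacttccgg
BBC3, chr19:47226576-47226623, minus strand: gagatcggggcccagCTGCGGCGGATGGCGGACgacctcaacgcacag
BCL2L11, chr2:111150088-111150135, plus strand: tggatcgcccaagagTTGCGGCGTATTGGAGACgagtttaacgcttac
BMF, chr15:40104192-40104239, minus strand: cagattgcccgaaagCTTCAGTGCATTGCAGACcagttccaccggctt
BID, chr22:17739412-17739459, minus strand: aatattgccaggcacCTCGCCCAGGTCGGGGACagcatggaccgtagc
BAD, chr11:64271619-64271666, minus strand: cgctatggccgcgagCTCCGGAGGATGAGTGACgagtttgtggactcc
BAX, chr19:48955772-48955819, plus strand: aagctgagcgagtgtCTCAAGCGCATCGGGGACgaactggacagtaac
BAK1, chr6:33575384-33575431, minus strand: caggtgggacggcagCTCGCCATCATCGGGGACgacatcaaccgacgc
BCL2L1, chr20:31721919-31721966, minus strand: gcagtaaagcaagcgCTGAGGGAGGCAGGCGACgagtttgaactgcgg
MCL1, chr1:150578862-150578909, minus strand: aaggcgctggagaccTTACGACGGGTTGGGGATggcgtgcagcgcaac

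The pattern occurred once in 9 of the encoded proteins and 2 times in BID, for which the match at residues 90 to 95 is printed and the first, at residues 25 to 30, is not. The fifth residue of the core was glycine in 7 members, alanine in BBC3 and BMF, and serine in BAD. The stretch lay within a single exon in every member, and the encoded proteins ranged from 54 residues (PMAIP1) to 350 residues (MCL1).

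Each condition was sequenced as 1 library, so no difference below has a replicate check. Values are FPKM as deposited, that is, the reads of a gene relative to its length and to all reads of the library, and can be compared between genes because they are per length. From 15662035 to 17889466 reads stood behind each library. A member was called higher or lower where FPKM + 1 differed at least 1.3-fold between the 2 libraries and a two-sided exact binomial test on their reads gave an adjusted p below 0.05 (Benjamini-Hochberg over all genes with at least 1 FPKM in either library). That test and the 95% intervals of FPKM ratios given in parentheses cover counting error only and compare the libraries, not the conditions. All 10 members passed the 1 FPKM filter in all 5 comparisons. In bulk RNA, fewer cells with a transcript and less of it per cell cannot be told apart.

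As a check of the labels, KDM1A, which encodes LSD1, was at 26.0 FPKM in the shLSD1 line without Dox and at 6.29 with Dox, and EHMT2, which encodes G9a, was at 7.85 and 4.76 FPKM in the shG9a line. KDM1A was called lower in the first and EHMT2 in the second, while KDM1A was called higher with Dox in the shG9a line, at 26.4 and 35.8 FPKM. EHMT2 was also called lower with the combination, at 11.1 and 5.38 FPKM. Of the 7 squamous markers, KRT17 was at 158 to 3716 FPKM, KRT5 at 74.6 to 734, TP63 at 18.3 to 127 and DSG3 at 5.57 to 28.6 FPKM across the 8 libraries, whereas KRT6A did not exceed 20.03 and KRT14 10.1 FPKM. SOX2 was at 18.3 FPKM with vehicle but at 0.313 with SP2509 and 0.637 with the combination, and at up to 38.8 FPKM with Dox in shG9a. The defining markers of other cell types were low, with PTPRC at 0.0425 FPKM or less, PECAM1 at 0.569 or less and COL1A2 at 0.0108 or less, and COL1A1 at 2.92 to 5.36 FPKM. Of these and COL3A1, COL1A1 and COL3A1 were called higher with SP2509 and COL1A1 with the combination, COL1A1 was called lower with Dox in shG9a, and their part in the results below was not tested. Of the 7 squamous markers, 5 were called higher and 1 lower with SP2509, 3 and 3 with UNC0642, 3 and 4 with the combination, 1 and 2 with Dox in shLSD1, and 4 and 2 with Dox in shG9a, and the part of such shifts was not tested either.

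MCL1 was the most abundant of the 10 transcripts in every library and made up 46.6% to 59.0% of their summed FPKM. In vehicle-treated cells MCL1 stood at 101 FPKM, PMAIP1, BCL2L1, BAK1, BAX and BID between 11.9 and 22.2 FPKM, and BCL2L11, BBC3, BAD and BMF between 1.35 and 6.14 FPKM. BMF, the member with the largest ratios in 3 of the 5 comparisons, had the lowest level of the 10 with vehicle and in uninduced shLSD1, whereas BAD was lowest in uninduced shG9a, at 0.920 against 1.88 FPKM for BMF.

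**Figure D1:**
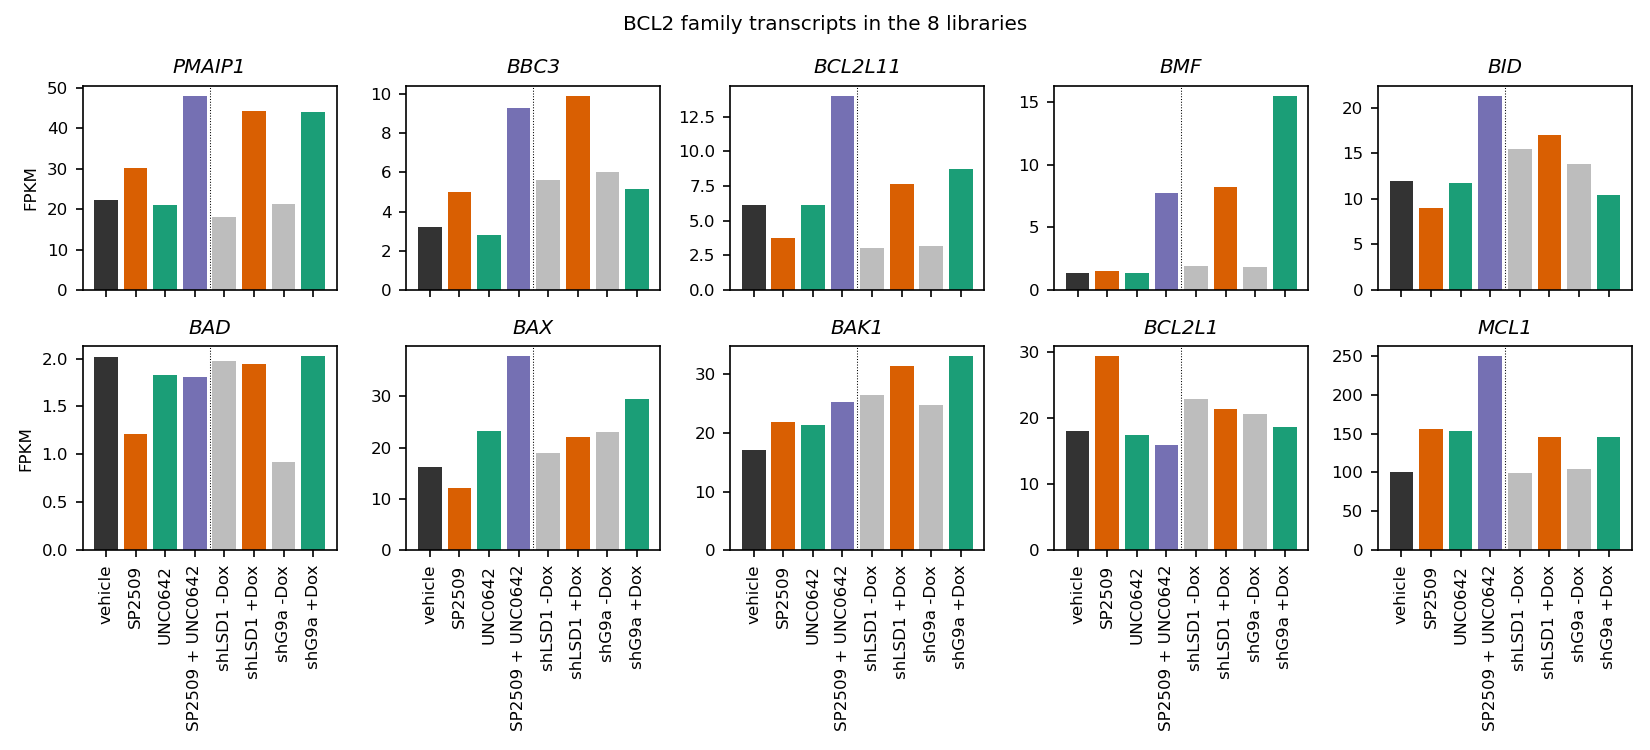
FPKM (linear axes starting at 0) of each of the 10 members in the 8 libraries, 1 bar per library and no error bars because each condition has 1 library; the dotted line separates the inhibitor experiment from the shRNA experiment. BMF stays at or below 1.92 FPKM in vehicle, both single inhibitors and both uninduced lines, and stands at 7.73, 8.21 and 15.5 FPKM in the combination and the 2 Dox libraries.

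Among the BH3-only genes, BMF showed the widest range. BMF encodes a protein held at the cytoskeleton through the dynein light chain until released, and lies on chr15:40087890-40108892 (minus strand). BMF was at 1.35 FPKM in the vehicle library, 1.54 under SP2509, 1.38 under UNC0642 and 7.73 under both inhibitors. In the shLSD1 line it was at 1.92 FPKM without and 8.21 with Dox, and in the shG9a line at 1.88 and 15.5 FPKM. The combination and both Dox libraries were high and the other 5 libraries low, with none in between. The share of all genes that split the libraries in this way was not counted. The FPKM ratio was 5.74 (4.70 to 7.05) for the combination, 4.27 (3.63 to 5.04) for Dox in shLSD1 and 8.27 (7.05 to 9.76) for Dox in shG9a. With a single inhibitor it was 1.14 (0.888 to 1.47) for SP2509 and 1.02 (0.789 to 1.32) for UNC0642, and neither was called. The increase in the shG9a line exceeded that of 99.9% of the genes tested there, on the log2 scale of FPKM + 1.

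BCL2L11, which encodes the activator BIM and lies on chr2:111119378-111168447 (plus strand), went in opposite directions with SP2509 alone and with the combination. Its level was 6.14 FPKM in the vehicle library, 3.73 under SP2509, 6.11 under UNC0642 and 14.0 under both. With Dox it rose in shLSD1, from 3.05 to 7.64 FPKM, and in shG9a, from 3.14 to 8.74 FPKM. SP2509 gave the only decrease, to a ratio of 0.608 (0.537 to 0.687), UNC0642 gave 0.996 (0.894 to 1.11), and the combination gave 2.28 (2.08 to 2.51). The Dox ratios were 2.51 (2.22 to 2.84) and 2.78 (2.46 to 3.15).

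PMAIP1, the MCL1-binding NOXA gene on chr18:59899948-59904306 (plus strand), was called higher in 4 of the 5 comparisons. It was at 22.2 FPKM in the vehicle library, 30.1 under SP2509, 21.1 under UNC0642 and 48.0 under the combination. In shLSD1 it was at 18.1 FPKM without and 44.3 with Dox, and in shG9a at 21.3 and 43.9 FPKM. The combination and the 2 Dox libraries were thus at 43.9 FPKM or above and the rest at 30.1 FPKM or below, a split not counted over all genes. The ratios were 1.36 (1.24 to 1.49) for SP2509, 2.17 (1.99 to 2.36) for the combination, 2.44 (2.24 to 2.67) for Dox in shLSD1 and 2.06 (1.90 to 2.25) for Dox in shG9a. UNC0642 gave 0.950 (0.861 to 1.05) and was not called.

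BBC3, the PUMA gene on chr19:47220822-47232766 (minus strand), was called higher with SP2509, with the combination and with Dox in shLSD1. It was at 3.23 FPKM in the vehicle library, 5.02 under SP2509, 2.83 under UNC0642 and 9.30 under both. Dox went with 5.63 and then 9.91 FPKM in the shLSD1 line, and with 6.01 and then 5.14 FPKM in the shG9a line. The ratios were 1.55 (1.27 to 1.89) for SP2509, 2.88 (2.40 to 3.46) for the combination and 1.76 (1.53 to 2.03) for Dox in shLSD1. The ratios of 0.875 (0.699 to 1.10) for UNC0642 and 0.855 (0.726 to 1.01) for Dox in shG9a were not called.

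BID, whose product is cut by caspase-8 to link death receptors to mitochondria, lies on chr22:17734138-17774770 (minus strand) and was called in the combination alone. Its level was 11.9 FPKM in the vehicle library, 9.06 under SP2509, 11.7 under UNC0642 and 21.3 under both, a combination ratio of 1.78 (1.64 to 1.94). In shLSD1 it was at 15.5 FPKM without and 17.0 with Dox, and in shG9a at 13.8 and 10.5 FPKM. The SP2509 ratio of 0.758 (0.685 to 0.839) and the shG9a ratio of 0.757 (0.689 to 0.831) lay just short of the fold required on FPKM + 1, with log2 fold changes of -0.36 and -0.37.

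BAD, a sensitizer kept inactive by binding to 14-3-3 proteins, lies on chr11:64269830-64284704 (minus strand) and was the member with the fewest reads, 26 to 60 per library. It was at 2.02 FPKM in the vehicle library, 1.22 under SP2509, 1.83 under UNC0642 and 1.80 under both, and SP2509 was called lower at 0.603 (0.386 to 0.933, 37 against 54 reads, adjusted p = 0.0276 by the exact binomial test). In the shLSD1 line it was at 1.98 FPKM without and 1.94 with Dox. In the shG9a line it was at 0.920 FPKM without and 2.03 with Dox, and was called higher at 2.20 (1.37 to 3.64). The low value stood in the uninduced shG9a library, which was also the single call between the uninduced lines (26 against 60 reads). The induced level was close to that of both shLSD1 libraries, and with the mean of both uninduced lines as control the log2 fold change was 0.31 and the call was lost. BAD overlaps GPR137 on the opposite strand, at 5.77 FPKM without and 13.3 with Dox in the shG9a line, and whether the counting used strand was not given in the sources used here.

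Of the effector genes, both were called higher with the combination and BAK1 also with Dox in shG9a. BAX, on chr19:48954815-48961798 (plus strand), was at 16.3 FPKM in the vehicle library, 12.1 under SP2509, 23.2 under UNC0642 and 37.9 under both inhibitors. It was thus called lower with SP2509, at 0.742 (0.662 to 0.832), and higher with UNC0642, at 1.43 (1.29 to 1.58), and with the combination, at 2.33 (2.13 to 2.55). Dox went with 19.0 and then 22.0 FPKM in shLSD1 and with 23.1 and then 29.4 FPKM in shG9a, where the ratios of 1.16 (1.05 to 1.27) and 1.28 (1.17 to 1.39) did not reach the fold required, although the latter did against the mean of both uninduced lines. BAK1, on chr6:33572547-33580293 (minus strand), was at 17.1 FPKM in the vehicle library, 21.9 under SP2509, 21.4 under UNC0642 and 25.3 under both. In shLSD1 it was at 26.5 FPKM without and 31.5 with Dox, and in shG9a at 24.8 and 33.2 FPKM. Every treated library was above its control for BAK1, with ratios from 1.19 to 1.48, and the combination and shG9a were called. How many of all genes rose in every comparison was not counted. A processed pseudogene, BAK1P1, was listed at 0.703 to 2.91 FPKM, and reads shared with it could be split by the counting.

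The guardian genes parted. MCL1, which encodes a short-lived protein and lies on chr1:150574551-150579738 (minus strand), was the member called higher in all 5 comparisons. It was at 101 FPKM in the vehicle library, 156 under SP2509, 154 under UNC0642 and 250 under both, at 99.9 FPKM without and 145 with Dox in shLSD1, and at 104 and 146 FPKM in shG9a. All 5 treated libraries were thus above all 3 controls, in experiments that differ in their cells and tables. The share of all genes called higher in all 5 comparisons, or ordered in this way, was not counted. The ratios were 1.55 (1.50 to 1.60), 1.53 (1.48 to 1.58), 2.49 (2.42 to 2.56), 1.46 (1.41 to 1.50) and 1.40 (1.36 to 1.44) in that order. With Dox in shG9a the log2 fold change of MCL1 was 0.34 after subtraction of the median gene (0.14, over genes at 5 FPKM or more in both), and that call was lost.

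BCL2L1, on chr20:31664452-31723989 (minus strand), was at 18.0 FPKM in the vehicle library, 29.4 under SP2509, 17.4 under UNC0642 and 16.0 under the combination. It was at 22.9 and 21.3 FPKM without and with Dox in shLSD1, and at 20.5 and 18.7 FPKM in shG9a. Of the inhibitor libraries SP2509 stood apart, at a ratio of 1.63 (1.50 to 1.77), and with the combination the ratio was 0.886 (0.808 to 0.972), which was not called. The FPKM of MCL1 was 5.58 times that of BCL2L1 with vehicle, 5.31 times with SP2509, 8.86 times with UNC0642 and 15.7 times with both, with 4.36 times before and 6.84 times after Dox in shLSD1, and 5.09 and 7.82 times in shG9a.

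**Figure D2:**
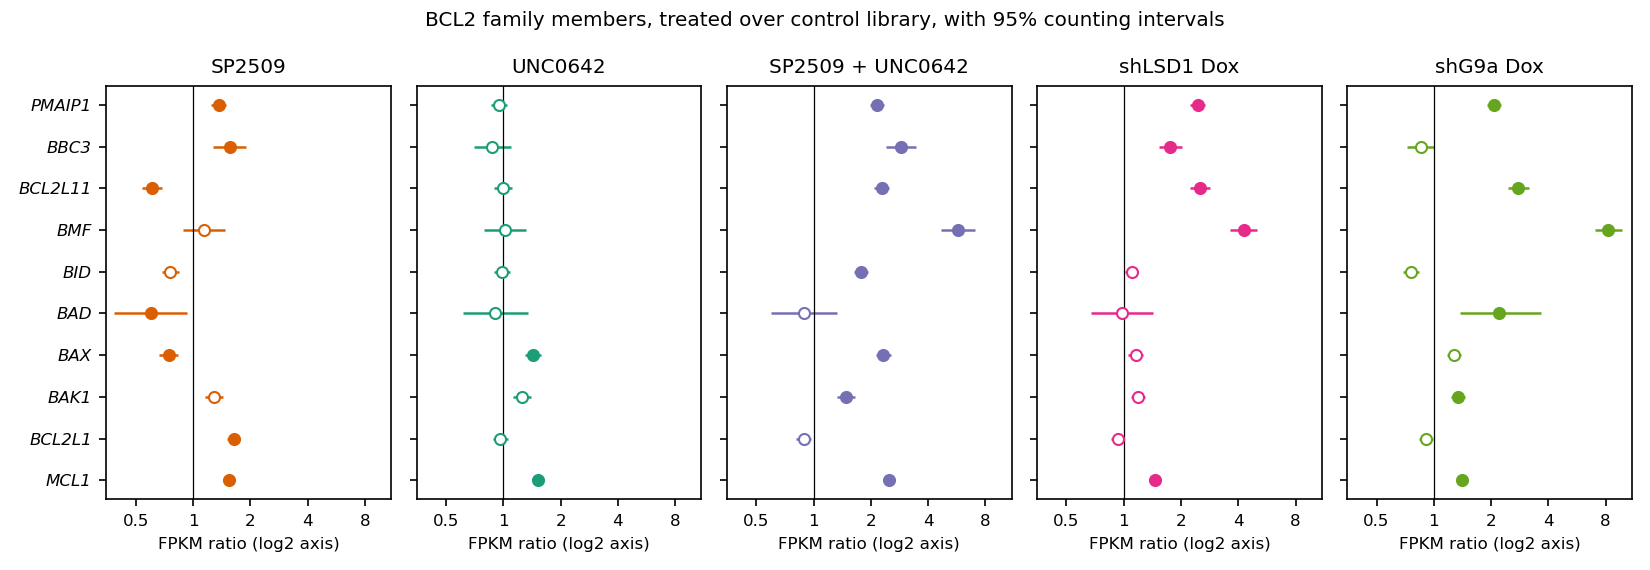
FPKM of the treated library over its control for the 10 members in the 5 comparisons (log2 axis), with 95% counting intervals; filled points were called and open points were not, and the vertical line marks a ratio of 1. With UNC0642 the members sit near 1 apart from BAK1, BAX and MCL1, while with both inhibitors 8 of 10 lie to the right, BMF farthest at 5.74.

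With SP2509 the family went both ways. Of the 10 members 4 were called higher (PMAIP1, BBC3, BCL2L1 and MCL1), against 18% of the 13342 genes tested, and 3 lower (BCL2L11, BAD and BAX), against 37.3%. The share of members called lower was near that of all genes. The median log2 fold change was 0.23 over the members and -0.21 over all genes tested. Both guardians were among the genes called higher, and 1 of 2 effectors was called lower. Scaling the libraries to a common upper quartile or subtracting the median gene, -0.09 over those at 5 FPKM or more in both, ended the calls of BAX and BAD and added one of BAK1 as higher.

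With UNC0642 alone few members were called. BAX and MCL1 were called higher, 2 members against 15.4% of the 13244 genes tested, and no member lower, against 13.6%. Neither count was far from the share of all genes. The median log2 fold change was -0.01 over the members and -0.01 over all genes tested. None of the 6 BH3-only genes was called, and their ratios lay between 0.875 and 1.02.

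With the combination most of the family was higher. Of the 10 members 8 were called higher, all but BAD and BCL2L1, against 28.8% of the 13907 genes tested, and none lower, against 28.9%. The median log2 fold change was 1.08 over the members and -0.02 over all genes tested. By role, 5 of 6 BH3-only genes, both effectors and 1 of 2 guardians were called higher. The same 8 members had their highest level of the 4 inhibitor libraries in the combination, as did 33.6% of the genes with at least 1 FPKM in any of them. The 3 inhibitor comparisons share the vehicle library, so a high or low value there would move all 3 ratios of a gene together.

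Summed over the 6 BH3-only genes, the level was 46.9 FPKM in the vehicle library, 50.7 under SP2509, 45.0 under UNC0642 and 102 under both inhibitors. The guardians together were at 119, 185, 171 and 266 FPKM in the same order. The ratio of the BH3-only sum to the guardian sum was therefore lower with either inhibitor alone, at 0.274 and 0.263, than with vehicle, at 0.395, and was 0.384 with the combination. In shLSD1 it was 0.376 without and 0.534 with Dox, and in shG9a 0.377 and 0.522. These are levels of RNA, and sums over genes are dominated by the abundant ones, PMAIP1 and MCL1.

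**Figure D3:**
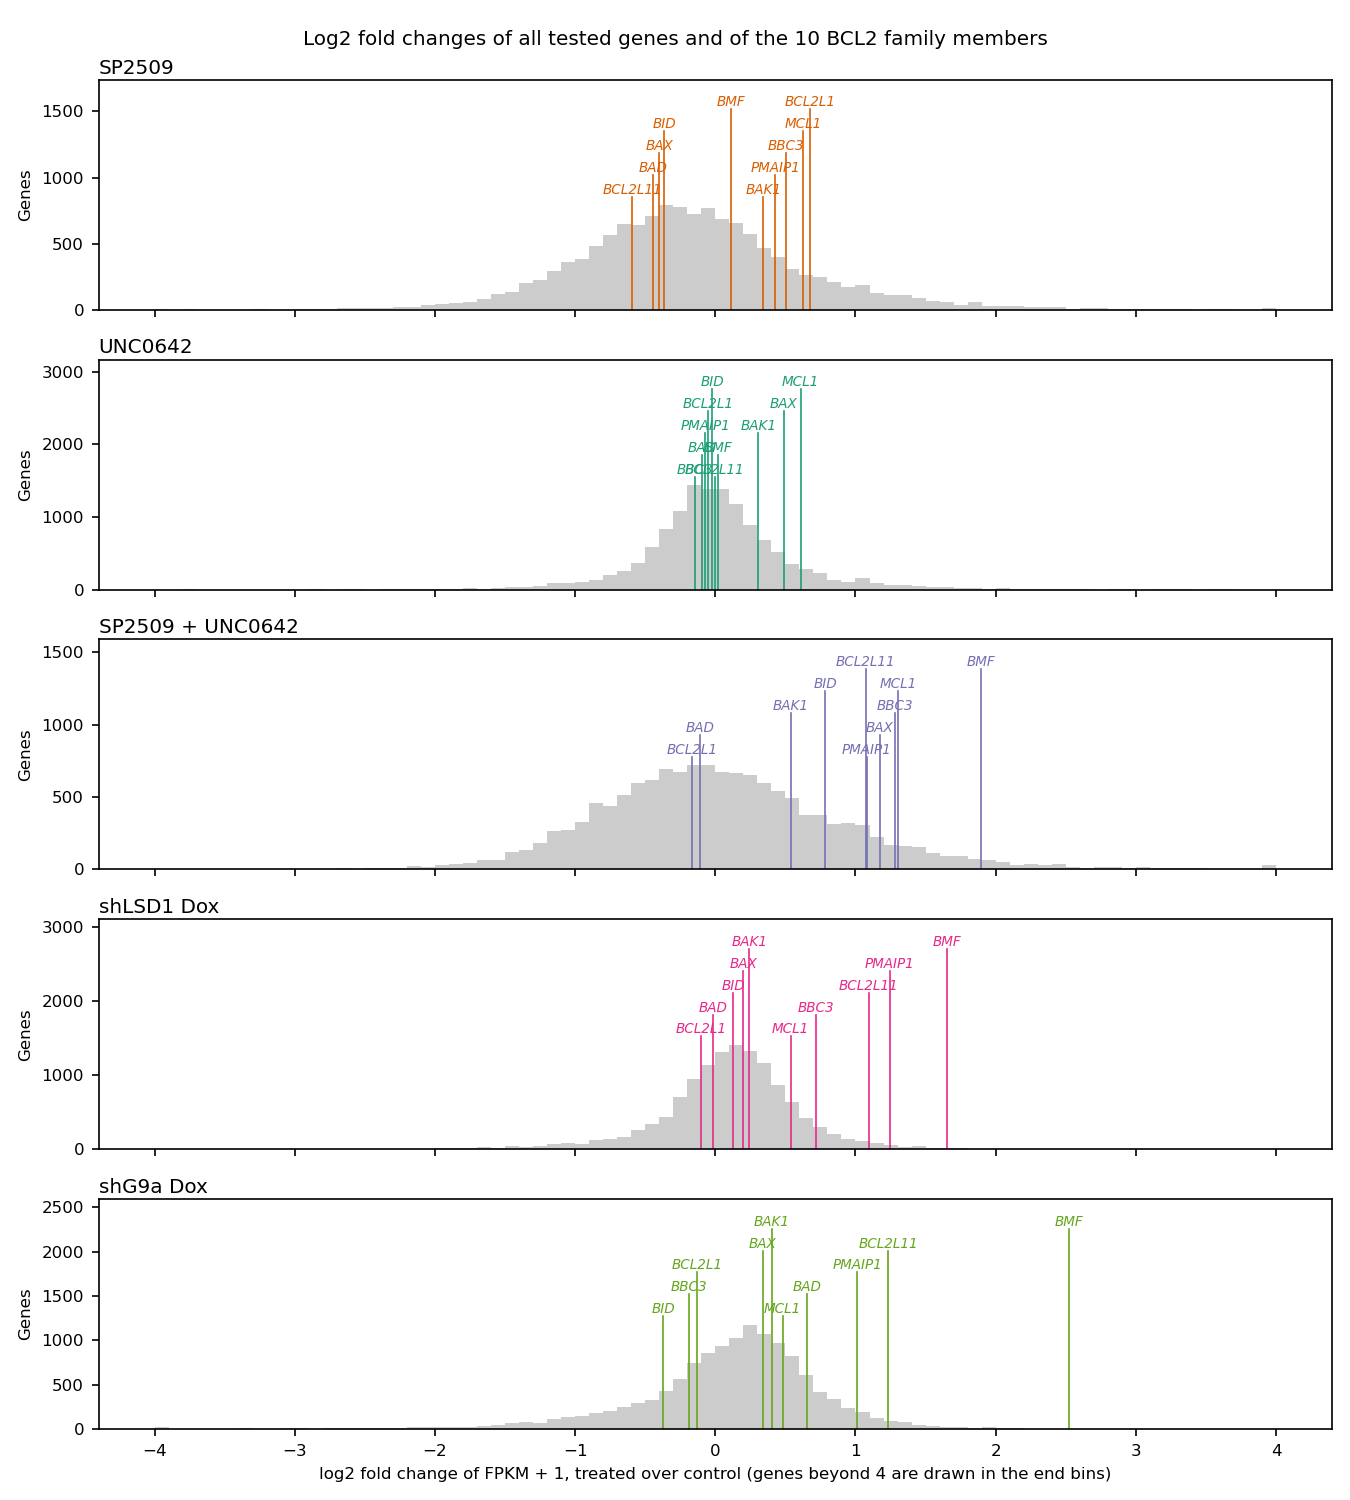
Histograms of the log2 fold change of FPKM + 1 over all genes tested in each comparison (grey; number of genes on the y axis), with the 10 members as labelled lines. The members lie on both sides of 0 within the bulk of genes with SP2509, from -0.59 to 0.68, and within the bulk with UNC0642, up to 0.61 for MCL1, and mostly to the right of its peak with the combination, where their median is 1.08; BMF, PMAIP1 and BCL2L11 lie in the right tail in both shRNA lines.

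In the shLSD1 line 5 members were called higher with Dox (PMAIP1, BBC3, BCL2L11, BMF and MCL1), against 22.3% of the 12970 genes tested, and none lower, against 10.3%. The median log2 fold change was 0.39 over the members and 0.13 over all genes tested. In the shG9a line 6 were called higher (PMAIP1, BCL2L11, BMF, BAD, BAK1 and MCL1), against 29.7% of the 13080 genes tested, and none lower, against 15.7%. The medians there were 0.44 and 0.18. The median of all genes tested was thus positive with Dox in both lines. FPKM is relative to all reads, so this does not show that most genes rose in absolute amount. With libraries centred on the median gene (at 5 FPKM or more in both) or scaled to a common upper quartile, BAK1 lost its call in shG9a and BID gained one as lower. Centring also ended the call of MCL1 there. With the mean of both uninduced lines as control BAK1 (0.36 on the log2 scale) and BAD lost their calls in shG9a, BID (-0.45) was called lower and BAX (0.46) higher. PMAIP1, BCL2L11 and BMF exceeded 95.1% to 99.9% of the genes tested in each line.

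For 5 members, PMAIP1, BCL2L11, BMF, BAK1 and MCL1, both Dox libraries lay above both uninduced libraries, as they did for 42.7% of the genes with at least 1 FPKM in any of the 4. Between the uninduced lines themselves no member was called higher in shG9a, against 0.9% of the 12449 genes tested, and 1, BAD, was called lower, against 1.35%.

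Dox went with unlike ratios in the 2 lines for some members. The ratio of a member's Dox ratio in shLSD1 to that in shG9a was tested with an exact conditional test on the reads of the 4 libraries, adjusted over the 12325 genes tested in both. It differed from 1 for 5 of the 10 members, where 50.6% of all genes did. For BBC3 it was 2.06 (exact test, adjusted p = 1.72e-10) and for BID 1.45 (exact test, adjusted p = 8.58e-09), both larger in shLSD1. For BMF it was 0.516 (exact test, adjusted p = 5.51e-08) and for BAD 0.445 (exact test, adjusted p = 0.0152), both larger in shG9a. PMAIP1 differed by a factor of 1.18 (exact test, adjusted p = 0.0150), while BCL2L11 (0.902), BAX (0.906), BAK1 (0.891), BCL2L1 (1.02) and MCL1 (1.04) were not called different, with adjusted p from 0.101 to 0.828.

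**Figure D4:**
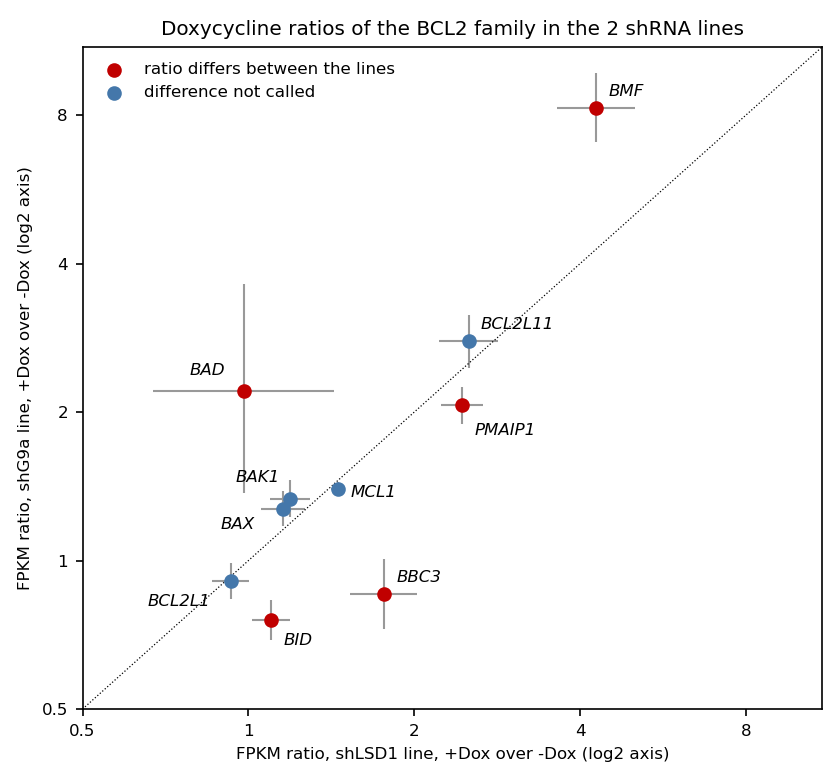
FPKM ratio of the Dox over the uninduced library in the shLSD1 line (x axis) and the shG9a line (y axis) for the 10 members, both on log2 axes, with 95% counting intervals; red points differ between the lines and the dotted line marks equal ratios. BMF lies highest in both at 4.27 and 8.27, and BBC3 and BID lie on the shLSD1 side.

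Inhibiting an enzyme and silencing it were also set side by side, with the same test. SP2509 and Dox in shLSD1 differed for 7 of the 10 members, where 78.6% of the 11769 genes tested in both did. BCL2L11 stood farthest apart, with a ratio 0.242 times as large with SP2509 (exact test, adjusted p = 1.30e-60), followed by BMF at 0.267, PMAIP1 at 0.556, BAX at 0.642 and BID at 0.689, while BCL2L1 at 1.76 and MCL1 at 1.06 went the other way. BBC3 (0.882), BAD (0.615) and BAK1 (1.08) were not called different. UNC0642 and Dox in shG9a differed for 6 members, where 68.4% of the 11906 genes tested in both did. BMF stood at 0.123 (exact test, adjusted p = 5.45e-40), BCL2L11 at 0.358, BAD at 0.412 and PMAIP1 at 0.460, while BID at 1.298 and MCL1 at 1.09 went the other way, and BBC3, BAX, BAK1 and BCL2L1 were not called different. The inhibitor and shRNA experiments differ in their cells, controls and tables, whose part in these differences was not tested.

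The 4 members called higher with the combination and with Dox in both lines were PMAIP1, BCL2L11, BMF and MCL1. Of these, MCL1 lost its shG9a call after subtraction of the median gene. Among all genes tested, 28.8% were called higher with the combination, 22.3% with Dox in shLSD1 and 29.7% with Dox in shG9a. The share of genes called higher in all 3 was not counted, so this overlap has no background beside it. RefSeq promoter sequence (GRCh38.p14) was found for 9 of the 10 members and not for MCL1. For BMF, which has 2 RefSeq starts, the one nearest the end of the deposited gene was used. For BCL2L11 the RefSeq start and the printed stretch lie inside the span of the deposited gene (chr2:111119378-111168447). The bases from 250 to 51 before the RefSeq start are printed for the other 3 genes, on the coding strand, with matches to the motifs named after them in capitals.
PMAIP1, chr18:59899746-59899945, plus strand: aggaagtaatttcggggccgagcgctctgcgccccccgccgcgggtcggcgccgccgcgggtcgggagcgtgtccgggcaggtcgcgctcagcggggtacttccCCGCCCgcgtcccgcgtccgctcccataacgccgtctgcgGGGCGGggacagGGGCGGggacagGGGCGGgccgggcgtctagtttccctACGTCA
BCL2L11, chr2:111120664-111120863, plus strand: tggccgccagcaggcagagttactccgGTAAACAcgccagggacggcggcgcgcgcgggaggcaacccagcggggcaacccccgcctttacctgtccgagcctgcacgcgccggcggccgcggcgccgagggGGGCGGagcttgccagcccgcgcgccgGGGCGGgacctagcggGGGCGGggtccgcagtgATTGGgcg
BMF, chr15:40108930-40109129, minus strand: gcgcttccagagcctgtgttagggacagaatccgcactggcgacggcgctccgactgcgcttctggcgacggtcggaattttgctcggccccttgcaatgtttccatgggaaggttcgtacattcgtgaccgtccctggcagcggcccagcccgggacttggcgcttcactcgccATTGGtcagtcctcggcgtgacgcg

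Of 5 motifs searched on both strands in these 200 bases, none was present in all 3 genes. The GC box (GGGCGG), held by 35% of the 35116 RefSeq promoters over the same stretch, occurred 4 times in PMAIP1 and 3 times in BCL2L11. The CCAAT box (CCAAT), held by 27.4%, occurred once in BCL2L11 and once in BMF. The core of forkhead (FOXO) sites (GTAAACA), held by 2.35%, occurred once in BCL2L11, 223 to 217 bases before the start, and the shortened site of the cAMP response element (TGACGT), held by 4.86%, once in PMAIP1, 56 to 51 bases before it. The E-box (CACGTG), held by 4.51%, was in none of the 3. No match overlapped another, and a match is a description of the letters, not of a bound site.

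Genes with a pattern of log2 fold changes like that of BMF and MCL1, the 2 members with the largest log2 fold changes of FPKM + 1, were sought over the 5 comparisons, among 9043 genes of both tables with at least 5 FPKM in 1 library or more. Nearest to BMF by Euclidean distance were HIST1H2BC (1.24), ASF1B (1.38) and VANGL2 (1.42), none of them close. With the combination the log2 fold change was 0.87 for HIST1H2BC and 1.895 for BMF. With SP2509 it was -0.79 for ASF1B and 0.11 for BMF. Nearest to MCL1 were DTL (0.276), RANGAP1 (0.283) and UBL5 (0.339). The choice of MCL1 rests on that scale, since by FPKM ratio BBC3 (2.88 with the combination) and BCL2L11 (2.78 with Dox in shG9a) exceeded it (2.49). The 3 inhibitor values of every gene share the vehicle library.

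Other genes of proteins with BCL2 homology went both ways. The counts of this list and of those below stand beside these shares of all genes tested. Called higher and lower were 18% and 37.3% with SP2509, 15.4% and 13.6% with UNC0642, and 28.8% and 28.9% with the combination. With Dox they were 22.3% and 10.3% in shLSD1, and 29.7% and 15.7% in shG9a. Of 13 such genes, 8 reached the filter with SP2509, of which 3 were called higher and 5 lower, 9 reached it with UNC0642, with 5 higher and 2 lower, and 9 reached the filter with the combination, of which 6 were called higher and 2 lower, and with Dox 8 reached it in each line, with 1 higher and 3 lower in shLSD1 and 2 higher and 3 lower in shG9a. The mitophagy receptor genes BNIP3 and BNIP3L were called higher with every inhibitor treatment and lower with Dox in both lines. BNIP3 was at 23.8 FPKM in the vehicle library, 122 under SP2509, 62.9 under UNC0642 and 129 under both, but at 140 FPKM without and 31.3 with Dox in shLSD1, and at 129 and 27.2 FPKM in shG9a. BNIP3L went from 35.4 to 76.0, 75.0 and 114 FPKM with the inhibitors and was at 99.1 and 49.0 FPKM without and with Dox in shLSD1 and at 98.5 and 32.1 FPKM in shG9a. BCL2A1, a further guardian, had 0 reads in the vehicle library and 43 under the combination, at 2.34 FPKM. Set against a floor of 3 reads in vehicle this was 13.3-fold higher, a value that leaves out the counting error of the 43 reads. With Dox BCL2A1 was below the filter, at 0.828 and then 0.157 FPKM in shLSD1 and at 0.666 and then 0 FPKM in shG9a.

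Of the genes that act at or downstream of mitochondria or oppose caspases, 10 of the 11 listed reached the filter with the combination. Of those, 6 were called higher and 1 lower. CYCS, which encodes cytochrome c, went from 70.2 FPKM to 20.9 with SP2509 and to 126 with the combination, and was called in opposite directions. BIRC3, which encodes an inhibitor of apoptosis protein, went from 16.8 to 3.35 FPKM with Dox in shG9a. DIABLO, whose symbol was listed 2 times in the shRNA table, was left out there. SP2509 gave 4 higher and 3 lower, UNC0642 1 and 1, Dox in shLSD1 4 and 1, and Dox in shG9a 3 and 1.

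All 9 listed binding partners, the dynein light chains that hold BMF and BCL2L11 and the 14-3-3 proteins that hold BAD, reached the filter. With the combination 5 were called higher and none lower, and the 14-3-3 sigma gene SFN was called higher in all 5 comparisons, from 179 FPKM with vehicle to 690 with the combination. YWHAG went from 101 to 216 FPKM with the combination, and YWHAE from 186 to 88.5 FPKM with Dox in shG9a. SP2509 gave 2 higher and 3 lower, UNC0642 2 and 0, Dox in shLSD1 3 and 0, and Dox in shG9a 6 and 2.

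Of the 5 genes for turnover of the MCL1 protein, none was called higher and 2 lower with the combination. With so few genes these counts are not set apart from the 28.8% and 28.9% of all genes tested. The deubiquitinase gene USP9X went from 20.9 to 13.5 FPKM and the ligase gene HUWE1 from 41.1 to 28.1 FPKM with the combination. FBXW7, a ligase subunit gene, went from 2.85 to 5.39 FPKM with SP2509. SP2509 gave 1 higher and 1 lower, UNC0642 0 and 0, Dox in shLSD1 1 and 0, and Dox in shG9a 1 and 1.

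Transcription factors known to act on BH3-only genes also went both ways. DDIT3, which encodes CHOP, was called lower in all 5 comparisons, at 70.6 FPKM with vehicle and 17.3, 5.70 and 22.6 FPKM with SP2509, UNC0642 and both, at 49.9 FPKM without and 27.8 with Dox in shLSD1, and at 59.5 and 3.58 FPKM in shG9a. ATF3 was called higher with SP2509 and with the combination, at 17.4 FPKM with vehicle and at 162 and 100.5 FPKM. It was called lower with Dox, from 34.2 to 14.1 FPKM in shLSD1 and from 35.8 to 3.66 FPKM in shG9a. TP63 went from 79.1 to 18.3 FPKM with the combination. Of the 9 factors, SP2509 gave 5 higher and 2 lower, UNC0642 1 and 2, the combination 5 and 3, Dox in shLSD1 3 and 4, and Dox in shG9a 2 and 5.

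The median log2 fold change with the combination was 0.08 over the 13 further BCL2 homology genes, 0.39 over the downstream genes, 0.43 over the binding partners, 0.02 over the MCL1 turnover genes and 0.48 over the transcription factors, genes below the filter included, beside 1.08 over the 10 members and -0.02 over all genes tested. With Dox in shLSD1 these medians were -0.03, 0.14, 0.21, 0.15 and -0.35 in the same order, beside 0.39 over the members, and with Dox in shG9a -0.14, 0.07, 0.45, 0.17 and -0.48, beside 0.44. With SP2509 they were 0, -0.06, 0.16, -0.07 and 0.63, beside 0.23 over the members, and with UNC0642 0.02, 0.12, 0.29, -0.12 and -0.16, beside -0.01.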

How the data were processed

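RNA of 8 Kyse510 libraries, 1 per condition, was sequenced as paired 150-base reads. The authors removed low-quality reads, aligned what remained to GRCh38.87.chr and deposited FPKM per gene in 2 tables, one for each experiment; the aligner, counter and use of strand were not given in the sources used here. Each deposited column was matched to a sample by its title, and 0 columns were left unmapped. Since FPKM is reads over gene length and library total, totals were recovered from genes with 1 exon (6559 and 5444 genes) and reads per gene from the smallest length that gave whole reads in all 4 libraries, or a matching multiple of it; these sum to 99.6% to 99.8% of the totals, and all but 1 gene per table gave whole reads. Read numbers are therefore estimates, and the two-sided exact binomial test on them compares 2 libraries. Calls needed 1.3-fold on FPKM + 1 (pseudocount 1) and an adjusted p below 0.05 over all genes with 1 FPKM in either library. Differences between comparisons used an exact conditional test chosen after seeing the data. Steps ran in Python 3.11.15 with scipy 1.17.1 and were tested on simulated data. The members and gene lists were chosen with earlier results of these data known. All 10 members were named; of each list of other genes, the 3 with the largest log2 fold change among those called, of which 1 gene is not reported here; and the targeted genes. MARCH5, deposited under a date, was matched by gene identifier.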

Additional observations from a re-analysis of the deposited data

Results flagged for a closer look

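The FPKM ratio with over without Dox differed between the shLSD1 and shG9a lines for 5 members, by the exact conditional test on reads. That test covers counting error only. The test gave the same call for 50.6% of the 12325 genes tested in both lines, so the share of members is that of all genes. The FPKM ratio in shLSD1 over that in shG9a was 2.06 for BBC3, 1.45 for BID, 1.18 for PMAIP1, 0.516 for BMF and 0.445 for BAD. BBC3 was higher with Dox in shLSD1 (5.63 to 9.91 FPKM) and not called in shG9a (6.01 to 5.14 FPKM). BID was not called in either line. BMF was called higher in both lines, and BAD in shG9a alone, against an uninduced library with 26 reads. Each value rests on 4 libraries without replicates, and variation between cultures was not tested.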

How the results depend on the processing

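Up to 11 other settings were tried for each comparison. With a fold threshold of 2 the count of members called was 0 both with SP2509 and with UNC0642, 6 with the combination, 3 for Dox in shLSD1, 3 for Dox in shG9a and 0 between the uninduced lines. The single call between the uninduced lines, BAD, was also lost (0 members) with a filter of 5 FPKM and with the fewest reads that give whole numbers. BID changed direction with Dox in shLSD1 under upper quartile scaling, to a log2 fold change of -0.0118, and BAD there with the mean of both uninduced lines as control, to 0.26; neither was called before or after. The combination kept 8 calls under every setting but the fold threshold. No paired analysis was possible because each condition has 1 library. With 1 library per condition, spread between cultures is unknown, and BAD (26 to 60 reads) and BMF in its low libraries (115 to 186 reads) are the members that depth limits most.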
